A study of Homo sapiens with 6 samples.

Results

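Breast cancer stem cell markers were followed in 231-BR and MDA-MB-231 cells as a set of 10 genes: CD44, CD24, PROM1, ALDH1A1, ALDH1A3, SOX2, SOX9, KLF4, BMI1 and PROCR. They were taken by gene symbol from the deposited expression matrix, in which all 10 were found among 17039 genes. MDA-MB-231 is an established human triple-negative breast cancer cell line, and 231-BR is a variant of it with preferential growth in the brain. Poly(A) RNA was sequenced from 3 libraries of each line, grown in DMEM with 10% fetal bovine serum and penicillin-streptomycin. The medium of 231-BR cells also held the selection antibiotic G418, whereas that of MDA-MB-231 cells did not, so a difference between the lines cannot be told apart from an effect of G418. Each line is represented by itself alone, so that the 3 libraries of a line are repeats of that line and not separate tumours.

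The libraries were assigned by their titles, because the cell line field of the labels carries a running number in 4 of the 6 libraries. The sources do not say whether the replicates came from separate cultures, and p-values measure only the spread between these libraries, which may be technical. Expression was given as FPKM, a fragment count scaled to the length of the transcript and to the total of mapped fragments. The FPKM values summed to 465020 to 472007 in 231-BR libraries and to 486937 to 496420 in MDA-MB-231 libraries. At least 1 FPKM was reached by 11166 to 11178 genes in 231-BR libraries, against 10785 to 10806 in MDA-MB-231 libraries. Read counts were not analysed here, so the depth is unknown.

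In breast tumours, cells that can start a new tumour have been enriched by surface proteins, by aldehyde dehydrogenase activity and by transcription factors of stem cells. CD44 is the receptor for hyaluronan, and CD24 is a small glycoprotein held in the membrane by a lipid anchor. Cells with much CD44 and little CD24 on their surface are the classical stem-like fraction of breast cancer. The aldehyde dehydrogenases ALDH1A1 and ALDH1A3 make retinoic acid, SOX2, SOX9 and KLF4 are transcription factors, and BMI1 is a subunit of Polycomb repressive complex 1.

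The clearest difference lay in CD24, which was 11.2-fold higher in 231-BR cells, while CD44 was moderately lower. SOX2, SOX9, KLF4 and BMI1 were also higher in 231-BR cells, and ALDH1A3 was lower. PROCR did not pass the test, and PROM1 and ALDH1A1 were at or near 0 in both lines. The lines were compared with limma on log2(FPKM + 0.1) for the 13465 genes with a mean of at least 0.1 FPKM, with Benjamini-Hochberg adjustment over all of them. Of the 10 markers, 8 passed this filter on low values. With an adjusted p under 0.05 as the limit, 5 markers were higher in 231-BR cells, 2 were lower and 1 did not pass, against 77.3% of all genes tested that passed, 44.4% higher and 32.9% lower. With quantile normalization, 35.8% of all genes tested were higher and 42.7% lower, and of the markers 5 were higher and 3 lower. Most genes thus differ between these lines by this rule, and 7 of 8 markers is close to that background. When an absolute log2 fold change over 1 was also required, 2 markers passed, CD24 and SOX2, both higher in 231-BR cells (10.9% of all genes tested) and none lower (4.34% of all genes tested), against 15.2% in either direction. For 7 of the 8 markers tested, and for 78.4% of all genes tested, every library of one line lay above every library of the other. The median log2 fold change was 0.36 over the 8 markers and 0.077 over all genes tested, and the median absolute log2 fold change was 0.49 and 0.38.

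**Figure D1:**
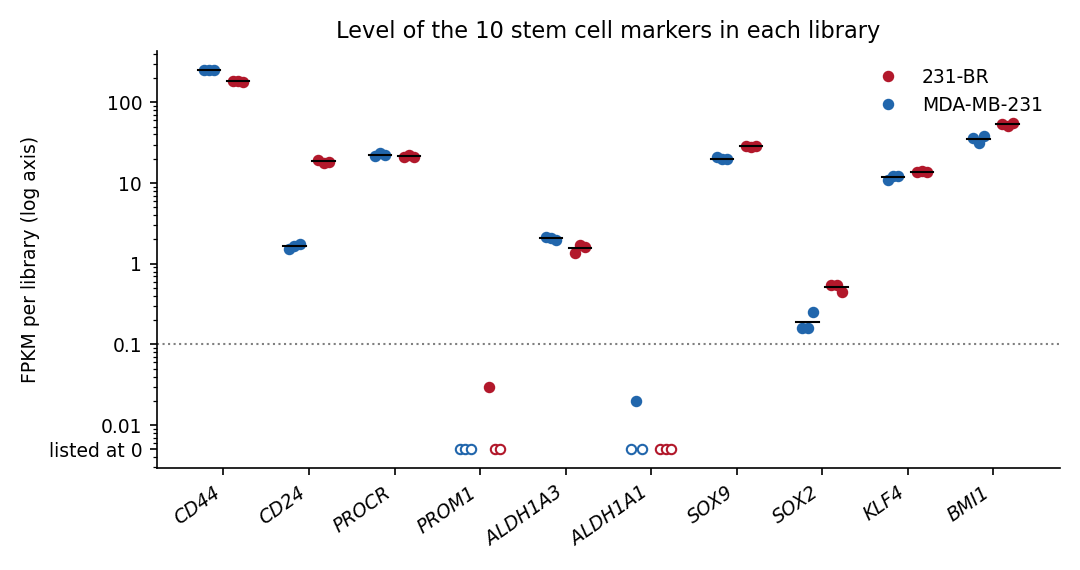
FPKM of the 10 markers in each library on a log axis, with 231-BR libraries in red and MDA-MB-231 libraries in blue. Filled points are libraries, open points are libraries listed at 0, black lines are means of the 3 libraries, drawn for genes with a mean over 0.1 FPKM, and the dotted line is the filter at 0.1 FPKM. CD24 lies between 1.54 and 1.78 FPKM in MDA-MB-231 libraries and between 17.94 and 19.42 FPKM in 231-BR libraries.

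The order of the levels differed between the lines mainly in the place of CD24. In MDA-MB-231 cells the order of mean FPKM was CD44, BMI1, PROCR, SOX9, KLF4, ALDH1A3, CD24 and SOX2, followed by ALDH1A1 and PROM1. In 231-BR cells it was CD44, BMI1, SOX9, PROCR, CD24, KLF4, ALDH1A3 and SOX2, followed by PROM1 and ALDH1A1. CD24 stood at rank 7 in MDA-MB-231 cells and at rank 5 in 231-BR cells. SOX9 and PROCR changed places between ranks 3 and 4. The libraries of neighbours in these orders did not overlap in either line, except for PROM1 and ALDH1A1.

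CD44 (gene ID 960) lies on chromosome 11 from 35138870 to 35232402 on the plus strand of GRCh38 and has 39 annotated transcripts, 26 of them coding. It was the most abundant marker in both lines. Its FPKM was 184.6, 182.2 and 176.88 in the 231-BR libraries, compared with 250.47, 253.38 and 248.05 for MDA-MB-231. All MDA-MB-231 libraries were above all 231-BR libraries. The mean was 181 ± 3.95 FPKM (SD, n = 3) for 231-BR against 251 ± 2.67 FPKM (SD, n = 3) for MDA-MB-231, a log2 fold change of −0.47 (SE 0.0231, 95% interval −0.52 to −0.42, limma adjusted p = 3.6e-08). CD44 was thus 1.38-fold higher in MDA-MB-231 cells, and 41.1% of all genes tested differed at least as much. It remained within the highest levels of each line, at percentile 97.9 of the 17039 genes in the file in 231-BR and 98.4 in MDA-MB-231 cells. The file gives a single value for the gene, so that the standard form and the variant forms made by alternative splicing could not be told apart.

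CD24 (gene ID 100133941) lies on chromosome 6 from 106969831 to 106975627 on the minus strand of GRCh38 and has 8 annotated transcripts, 7 of them coding. Its FPKM was 19.42, 17.94 and 18.47 in the 231-BR libraries, compared with 1.54, 1.66 and 1.78 for MDA-MB-231. The groups were far apart, and the libraries of each line lay close together. The mean was 18.6 ± 0.75 FPKM (SD, n = 3) for 231-BR against 1.66 ± 0.12 FPKM (SD, n = 3) for MDA-MB-231, a log2 fold change of 3.41 (SE 0.0629, 95% interval 3.27 to 3.55, limma adjusted p = 4.6e-11). Only 1.58% of all genes tested differed at least as much. Among the 17039 genes in the file, CD24 stood at percentile 40.5 in MDA-MB-231 cells and at percentile 74.9 in 231-BR cells. In bulk RNA, more cells with CD24 and more CD24 RNA per cell cannot be told apart.

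The coding sequence of CD24 is shown because the gene has near-identical copies in the genome, which bears on how its reads are assigned. It is 243 bases long, is the same in 3 coding transcripts of GENCODE release 29, and lies in a transcript of 2513 bases with 3 exons. Capitals mark the 215 bases that lie in stretches of 50 bases identical to a transcript of 1 of 2 other genes.
CD24 coding sequence: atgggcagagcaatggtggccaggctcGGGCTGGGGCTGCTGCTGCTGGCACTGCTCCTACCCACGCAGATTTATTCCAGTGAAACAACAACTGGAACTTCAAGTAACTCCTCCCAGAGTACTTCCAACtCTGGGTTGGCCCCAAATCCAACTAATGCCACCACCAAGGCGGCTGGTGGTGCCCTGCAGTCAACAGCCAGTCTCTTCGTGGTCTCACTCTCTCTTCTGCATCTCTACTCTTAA
Over the whole transcript, 17 of 2414 windows of the read length of 100 bases, or 0.704%, were identical to a transcript of another gene. Most windows of this length are therefore not identical to an annotated copy. Windows that differ from a copy in a few bases were not counted as shared, so this does not show how well reads can be told apart. How the authors' counting placed the reads of CD24 and its copies is not stated, so the level of CD24 carries that uncertainty.

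The ratio of CD44 to CD24 was computed within each library, since it sets the markers of the classical stem-like fraction side by side. It was 9.51, 10.2 and 9.58 in the 231-BR libraries, compared with 163, 153 and 139 for MDA-MB-231. Every MDA-MB-231 library thus had a higher ratio than every 231-BR library. On the scale of log2(CD44/CD24), with 0.1 added to both FPKM values, the mean was 3.28 ± 0.052 (SD, n = 3) in 231-BR cells and 7.16 ± 0.106 (SD, n = 3) in MDA-MB-231 cells, a difference of −3.88. The two-sided exact permutation test gave p = 0.1, the smallest value that 3 libraries against 3 allow. The ratio is of RNA in the whole culture and does not give the share of cells with a given surface phenotype.

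**Figure D2:**
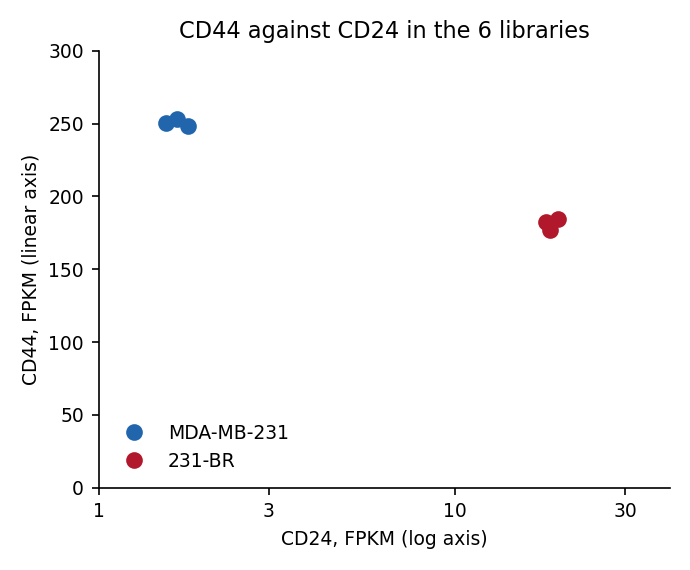
CD44 against CD24 in each library, both in FPKM, with CD24 on a log axis, 231-BR libraries in red and MDA-MB-231 libraries in blue. The 231-BR libraries sit at 17.94 to 19.42 FPKM of CD24 with 176.88 to 184.6 FPKM of CD44, and the MDA-MB-231 libraries sit at 1.54 to 1.78 FPKM of CD24 with 248.05 to 253.38 FPKM of CD44.

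PROCR (gene ID 10544), on chromosome 20 from 35172073 to 35216240 on the plus strand, codes for the endothelial protein C receptor, which marks stem cells of the mouse mammary gland. Its FPKM was 21.31, 22.36 and 21.02 in the 231-BR libraries, compared with 21.91, 23.74 and 21.98 for MDA-MB-231. The libraries of the lines overlapped. The mean was 21.6 ± 0.705 FPKM (SD, n = 3) for 231-BR against 22.5 ± 1.04 FPKM (SD, n = 3) for MDA-MB-231, a log2 fold change of −0.06 (SE 0.0409, 95% interval −0.16 to 0.03, limma adjusted p = 0.18). The interval allows for a small decrease in 231-BR cells. With median-of-ratios scaling and with quantile normalization the log2 fold change was −0.13, with a limma adjusted p of 0.018 in each, so that the call depends on the scaling.

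PROM1 (gene ID 8842), on chromosome 4 from 15963076 to 16084378 on the minus strand, codes for the membrane glycoprotein CD133. It was listed at 0.03, 0 and 0 FPKM in the 231-BR libraries and at 0 in all 3 MDA-MB-231 libraries. It fell under the filter and was not tested.

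Of the aldehyde dehydrogenases, ALDH1A1 (gene ID 216), on chromosome 9 from 72900662 to 73080442 on the minus strand, was listed at 0 in all 231-BR libraries. In the MDA-MB-231 libraries it was listed at 0, 0.02 and 0 FPKM, and it was not tested either. ALDH1A3 (gene ID 220) lies on chromosome 15 from 100877714 to 100916626 on the plus strand. Its FPKM was 1.36, 1.7 and 1.63 in the 231-BR libraries, compared with 2.14, 2.07 and 1.96 for MDA-MB-231. It was low in both lines, and all 231-BR libraries were below all MDA-MB-231 libraries. The mean was 1.56 ± 0.18 FPKM (SD, n = 3) for 231-BR against 2.06 ± 0.0907 FPKM (SD, n = 3) for MDA-MB-231, a log2 fold change of −0.38 (SE 0.0979, 95% interval −0.60 to −0.16, limma adjusted p = 0.005). The decrease was larger with quantile normalization, at a log2 fold change of −0.74. Of the summed FPKM of all aldehyde dehydrogenase genes, ALDH1A1 and ALDH1A3 made up 0.63% to 0.789% in 231-BR libraries and 1.19% to 1.28% in MDA-MB-231 libraries.

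SOX2 (gene ID 6657), on chromosome 3 from 181711924 to 181714436 on the plus strand, is a factor of pluripotent and neural stem cells with a transcript of 1 exon. Its FPKM was 0.54, 0.54 and 0.45 in the 231-BR libraries, compared with 0.16, 0.16 and 0.25 for MDA-MB-231. The groups did not overlap, and every library was under 1 FPKM. The mean was 0.51 ± 0.052 FPKM (SD, n = 3) for 231-BR against 0.19 ± 0.052 FPKM (SD, n = 3) for MDA-MB-231, a log2 fold change of 1.08 (SE 0.171, 95% interval 0.70 to 1.47, limma adjusted p = 0.00021). At such levels the fold change follows the pseudocount, and it was 0.34 with a pseudocount of 1 and 1.40 with 0.01. With quantile normalization it was 0.71, under the limit of 1.

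SOX9 (gene ID 6662), on chromosome 17 from 72121020 to 72126420 on the plus strand, is a factor of progenitor cells in many epithelia. Its FPKM was 28.71, 28.07 and 28.62 in the 231-BR libraries, compared with 20.87, 19.71 and 19.62 for MDA-MB-231. The libraries of each line were close together and did not overlap with those of the other. The mean was 28.5 ± 0.346 FPKM (SD, n = 3) for 231-BR against 20.1 ± 0.697 FPKM (SD, n = 3) for MDA-MB-231, a log2 fold change of 0.50 (SE 0.0336, 95% interval 0.43 to 0.58, limma adjusted p = 3.2e-07). SOX9 made up 53.2% to 54.2% of the summed FPKM of the SOX genes in 231-BR libraries and 55.6% to 57.7% in MDA-MB-231 libraries.

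KLF4 (gene ID 9314), on chromosome 9 from 107484852 to 107490482 on the minus strand, is a zinc finger factor used to reprogram cells to pluripotency. Its FPKM was 13.61, 13.92 and 13.85 in the 231-BR libraries, compared with 11.04, 12.36 and 12.18 for MDA-MB-231. All 231-BR libraries were higher, and MDA-MB-231 replicate 1 was the lowest. The mean was 13.8 ± 0.163 FPKM (SD, n = 3) for 231-BR against 11.9 ± 0.716 FPKM (SD, n = 3) for MDA-MB-231, a log2 fold change of 0.22 (SE 0.0473, 95% interval 0.11 to 0.32, limma adjusted p = 0.0018). This was the smallest increase among the markers that passed, and 69.0% of all genes tested differed at least as much. With quantile normalization it was 0.14.

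**Figure D3:**
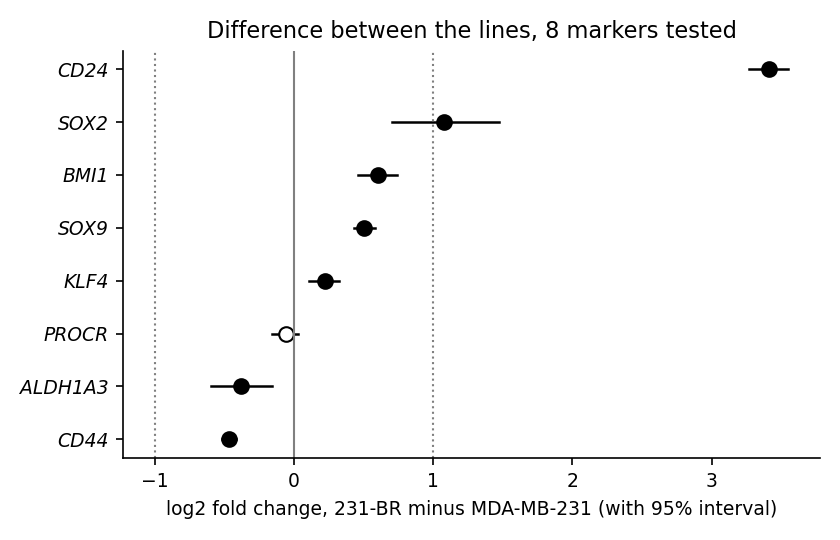
Log2 fold change of 231-BR over MDA-MB-231 cells for the 8 markers tested, on the log2(FPKM + 0.1) scale, with bars for the 95% interval from limma and dotted lines at a log2 fold change of 1 in either direction. The open point, PROCR at −0.06, did not pass at an adjusted p under 0.05, and CD24 stands apart at 3.41.

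BMI1 (gene ID 648) lies on chromosome 10 from 22321211 to 22331484 on the plus strand. Its protein stimulates the ubiquitin ligase of Polycomb repressive complex 1. Its FPKM was 53.71, 51.29 and 54.89 in the 231-BR libraries, compared with 36.56, 31.42 and 37.79 for MDA-MB-231. All 231-BR libraries were higher, and MDA-MB-231 replicate 2 was the lowest. The mean was 53.3 ± 1.84 FPKM (SD, n = 3) for 231-BR against 35.3 ± 3.38 FPKM (SD, n = 3) for MDA-MB-231, a log2 fold change of 0.60 (SE 0.0608, 95% interval 0.46 to 0.74, limma adjusted p = 7.7e-06).

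BMI1 shares exons with the read-through gene COMMD3-BMI1 (gene ID 100532731), which starts at the neighbouring gene COMMD3 and runs on into BMI1, from 22316388 to 22329542 on chromosome 10. Of the 3329 windows of 100 bases in the longest coding BMI1 transcript, 902, or 27.1%, were also found in COMMD3-BMI1. The junctions of a pair of read-through transcripts are shown because they join COMMD3 exons to the exon that BMI1 shares. Lower case gives the COMMD3 side, and capitals give the start of the shared BMI1 exon at position 22326431.
COMMD3-BMI1 junction of exons 5 and 6: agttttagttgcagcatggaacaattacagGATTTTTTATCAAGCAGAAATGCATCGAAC
COMMD3-BMI1 junction of exons 4 and 5: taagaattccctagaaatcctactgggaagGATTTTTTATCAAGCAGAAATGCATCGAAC
COMMD3-BMI1 was listed at 3.47, 1.35 and 0 FPKM in the 231-BR libraries, compared with 5.44, 6.22 and 2.03 FPKM for MDA-MB-231. The libraries overlapped, and the difference did not pass (log2 fold change −2.39, SE 1.05, limma adjusted p = 0.061). Within MDA-MB-231 cells, replicate 2 had the least BMI1 and the most COMMD3-BMI1. When the values of both were added, the sum was 57.18, 52.64 and 54.89 in the 231-BR libraries, compared with 42.0, 37.64 and 39.82 for MDA-MB-231. The log2 fold change of the sum was 0.46 (SE 0.0435, limma adjusted p = 4.2e-06), so that BMI1 was higher in 231-BR cells with either count. This sum was chosen after the values were seen, and it adds FPKM values of transcripts of different length. COMMD3, also chosen after its values were seen, was at 52.7 ± 1.84 FPKM (SD, n = 3) for 231-BR against 33.7 ± 1.85 FPKM (SD, n = 3) for MDA-MB-231.

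**Figure D4:**
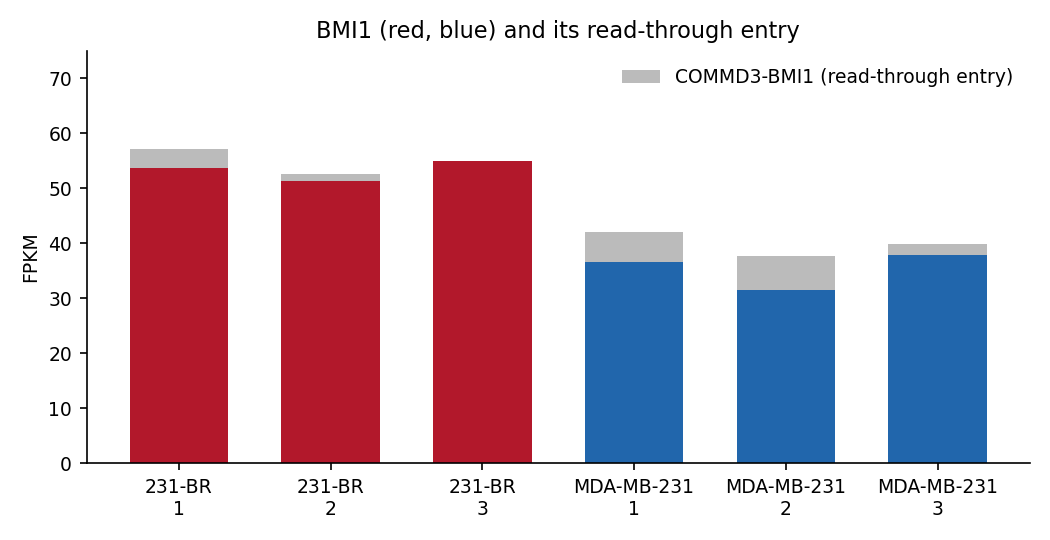
FPKM of BMI1 (coloured) and of the read-through gene COMMD3-BMI1 (grey), stacked for each library, with 231-BR in red and MDA-MB-231 in blue. The stacked height is 52.64 to 57.18 FPKM in 231-BR libraries and 37.64 to 42.0 FPKM in MDA-MB-231 libraries.

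The genes around each marker were examined to see whether the markers followed their neighbourhood, as the median log2 fold change of up to 40 expressed neighbours. Around CD24 the median was −0.01, far from the value of CD24 itself. Around CD44 it was 0.44, opposite in sign to CD44. Around SOX9 it was 0.42, close to the value of SOX9. Around BMI1 it was −0.21, but the neighbouring gene COMMD3, chosen after its values were seen, had a log2 fold change of 0.64, against 0.60 for BMI1. Around KLF4 the median was 0.15, around SOX2 0.19, around PROCR −0.18 and around ALDH1A3, with 26 neighbours, 0.28. Around PROM1 and ALDH1A1, which were not tested, it was −0.12 and 0.18.

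The genes most like CD44 over the 6 log2 values, by Euclidean distance, were DDX39B, an RNA helicase (distance 0.131), TPX2, a spindle assembly factor (0.151), and KRT8, a keratin of simple epithelia (0.181). The genes most like CD24 were the sialyltransferase ST3GAL6 (0.291), the guidance ligand SEMA3A (0.438) and EMC10, a subunit of the endoplasmic reticulum membrane complex (0.503). CD24 thus had no gene as close as CD44 had.

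Related genes were compared from lists of the markers' pathways, which were put together with earlier results of these data known and hold the markers of their own families. The counts use an adjusted p under 0.05, for which 44.4% of all genes tested were higher and 32.9% lower in 231-BR cells, and list medians stand against 0.077 over all genes tested. Of 19 tested genes for hyaluronan turnover and partners of CD44, 11 passed as higher in 231-BR cells, 5 were lower and 3 did not pass, with a median log2 fold change of 0.21. With quantile normalization, 6 of these were higher and 6 lower, and the median was 0.04. The hyaluronan synthase HAS2 rose from 0.167 ± 0.0379 to 4.71 ± 0.387 FPKM (SD, n = 3; log2 fold change 4.18, limma adjusted p = 1.1e-09). CEMIP, which takes part in hyaluronan breakdown, rose from 0.09 ± 0.0265 to 4.05 ± 0.0874 FPKM (SD, n = 3; log2 fold change 4.46, limma adjusted p = 8.1e-10). MSN, or moesin, which ties CD44 to the actin cortex, had a log2 fold change of 1.37 (limma adjusted p = 1.4e-11). ESRP2, a splicing regulator of epithelial cells that acts on CD44 transcripts, fell from 2.62 ± 0.395 to 0.36 ± 0.0624 FPKM (SD, n = 3; log2 fold change −2.56, limma adjusted p = 7.7e-08). ESRP1, named after its values were seen, moved the other way, from 0.11 ± 0.07 to 0.233 ± 0.0473 FPKM (SD, n = 3; log2 fold change 0.71, limma adjusted p = 0.03). The ESRP1 libraries of the lines overlapped, and with quantile normalization ESRP1 did not pass (limma adjusted p = 0.21).

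Of 12 tested genes among further breast cancer stem cell markers, 7 were higher in 231-BR cells, 4 were lower and 1 did not pass, with a median log2 fold change of 0.66 (7 higher and 5 lower with quantile normalization). The tetraspanin TSPAN8 rose from 0.0133 ± 0.0231 to 3.50 ± 0.498 FPKM (SD, n = 3; limma adjusted p = 3.2e-09). B4GALNT1, an enzyme of ganglioside synthesis, fell from 3.86 ± 0.129 to 1.25 ± 0.0551 FPKM (SD, n = 3; limma adjusted p = 2.6e-08). The most abundant gene of the list, the integrin subunit ITGB1, had a log2 fold change of −0.96.

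Of 14 tested aldehyde dehydrogenases, 8 were higher, 3 were lower and 3 did not pass, with a median log2 fold change of 0.33 (7 higher and 3 lower with quantile normalization). ALDH3A1 rose from 0.0667 ± 0.0351 to 3.06 ± 0.11 FPKM (SD, n = 3; log2 fold change 4.27, limma adjusted p = 5.8e-09), so that it stood above ALDH1A3 in 231-BR cells and below it in MDA-MB-231 cells. ALDH6A1, an enzyme of valine breakdown, had a log2 fold change of 1.00 (limma adjusted p = 8.4e-08), but 0.94 with median-of-ratios scaling and 0.76 with quantile normalization, under the limit of 1. ALDH9A1, the most abundant gene of the family by mean FPKM, had a log2 fold change of 0.63 (limma adjusted p = 1.1e-08). Of 10 tested genes of retinoid signalling, the pathway fed by ALDH1A enzymes, 4 were higher, 4 were lower and 2 did not pass, with a median log2 fold change of −0.02 (3 higher and 6 lower with quantile normalization). RARRES3, a retinoic acid responsive gene, fell from 1.11 ± 0.231 to 0.463 ± 0.175 FPKM (SD, n = 3; limma adjusted p = 9.7e-04). The retinoic acid receptor gene RARB, named after its values were seen and below 1 FPKM in both lines, moved the other way, from 0.0833 ± 0.0351 to 0.667 ± 0.117 FPKM (SD, n = 3; log2 fold change 2.07, limma adjusted p = 4.4e-06). RXRB, the most abundant gene of this list, had a log2 fold change of 0.37.

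Of 8 tested SOX genes, 5 were higher, 2 were lower and 1 did not pass, with a median log2 fold change of 0.57. SOX4 had a log2 fold change of 1.49 (limma adjusted p = 9e-08) and was, at 3.04 ± 0.0473 FPKM (SD, n = 3) in 231-BR cells, above SOX2 and below SOX9. Of 14 tested KLF genes, 9 were higher, 3 were lower and 2 did not pass, with a median log2 fold change of 0.27 (7 higher and 4 lower with quantile normalization). KLF2, a factor of quiescence in endothelium and T cells, rose from 5.90 ± 0.159 to 16.9 ± 0.851 FPKM (SD, n = 3), passing KLF4, and KLF10, a TGF-beta response gene, fell from 24.3 ± 0.587 to 10.5 ± 0.201 FPKM (SD, n = 3). The limma adjusted p was 1.6e-09 for KLF2 and 8.6e-10 for KLF10. KLF9 had a log2 fold change of 1.85 and KLF15 of 1.43, and KLF6, the most abundant KLF gene, of 0.32, all past the test. KLF4 made up 10.1% to 10.3% of the summed KLF FPKM in 231-BR libraries and 9.09% to 10.1% in MDA-MB-231 libraries. Of 4 tested pluripotency genes, 3 were higher, namely MYC and the markers SOX2 and KLF4, and POU5F1 did not pass (limma adjusted p = 0.27). The median log2 fold change was 0.70, and 0.42 with quantile normalization. MYC rose from 36.5 ± 0.661 to 84.6 ± 0.718 FPKM (SD, n = 3), with a limma adjusted p of 8.3e-11. NANOG, LIN28A, SALL4, ZFP42 and TDGF1 had means under 0.1 FPKM in both lines and were not tested. These genes and POU5F1 were named after their values were seen.

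Of 21 tested genes of Polycomb repressive complex 1, 9 were higher, 4 were lower and 8 did not pass, with a median log2 fold change of 0.08 (9 higher and 8 lower with quantile normalization). RNF2, the ubiquitin ligase that BMI1 stimulates, rose from 7.71 ± 0.254 to 16.0 ± 0.582 FPKM (SD, n = 3), with a log2 fold change of 1.04 (limma adjusted p = 1.2e-08). With median-of-ratios scaling it was 0.98 and with quantile normalization 0.93, both under the limit of 1. PHC2, the most abundant gene of this list, had a log2 fold change of 0.19. BMI1 made up 14.4% to 15.2% of the summed FPKM of this list in 231-BR libraries and 10.1% to 11.6% in MDA-MB-231 libraries. Of 8 tested genes of the protein C pathway, in which PROCR acts, 4 were higher, 3 were lower and 1 did not pass, with a median log2 fold change of 0.07 (4 higher and 4 lower with quantile normalization). Protein C itself, PROC, was near 0 in both lines. Thrombomodulin, THBD, which activates protein C together with thrombin, rose from 6.56 ± 0.263 to 16.4 ± 0.709 FPKM (SD, n = 3), and the cofactor protein S, PROS1, rose from 1.74 ± 0.195 to 7.65 ± 0.286 FPKM (SD, n = 3). The limma adjusted p was 4.5e-09 for THBD and 8.3e-09 for PROS1. F2RL2, or protease-activated receptor 3, fell from 1.59 ± 0.195 to 0.51 ± 0.0794 FPKM (SD, n = 3; log2 fold change −1.47, limma adjusted p = 3.4e-06). F3, or tissue factor, the most abundant gene of the list, had a log2 fold change of 0.56.

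**Figure D5:**
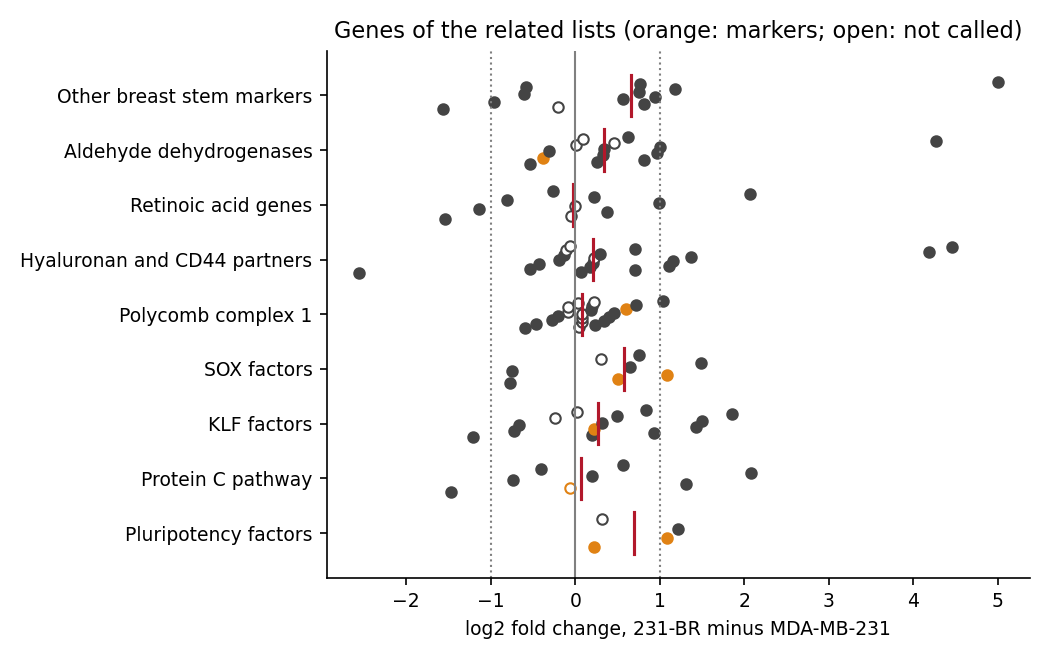
Log2 fold change of 231-BR over MDA-MB-231 cells for the genes tested in each list of related genes, on the log2(FPKM + 0.1) scale, with a red bar at the median of each list and the markers in orange. Open points did not pass at an adjusted p under 0.05, and medians lie between −0.02 for retinoid signalling and 0.70 for pluripotency factors. The lists of cell type markers are not drawn.

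The labelled cell type was checked against its markers. KRT8 and KRT18, keratins of simple epithelia, were abundant in both lines, with means of 176 FPKM of KRT8 for 231-BR and 237 FPKM for MDA-MB-231. The mesenchymal filament VIM was at 2553 ± 14.8 FPKM (SD, n = 3) for 231-BR against 2306 ± 28.7 FPKM (SD, n = 3) for MDA-MB-231. In contrast, the mesenchymal cadherin CDH2 was low in both lines, with means of 0.11 and 0.117 FPKM, and did not pass (limma adjusted p = 0.87). CDH1, or E-cadherin, was near 0 in both lines, and the basal keratins KRT5, KRT14 and KRT17 had means of at most 0.123 FPKM. The epithelial gene EPCAM was present, at 8.7 ± 0.534 FPKM (SD, n = 3) for 231-BR against 5.06 ± 0.552 FPKM (SD, n = 3) for MDA-MB-231 (limma adjusted p = 9e-06). The receptor genes ESR1 and PGR were low, with means of 0.927 FPKM of ESR1 for 231-BR and 0.79 FPKM for MDA-MB-231. The receptor gene ERBB2 was not near 0 and was higher in 231-BR cells, at 9.88 ± 0.316 FPKM (SD, n = 3) against 4.95 ± 0.176 FPKM (SD, n = 3; log2 fold change 0.98, limma adjusted p = 4e-08). Of 12 markers of other cell types, 10 were in the file and 3 passed the filter, all called higher for 231-BR. The same call was made for 44.4% of all genes tested, so that a count over 3 genes is no result about this list. The summed FPKM of the 10 markers was 27.2 to 28.6 in 231-BR libraries and 13.4 to 14.9 in MDA-MB-231 libraries. MBP made up 73.8% to 75.8% and 95.5% to 95.9% of this sum. SYT1, a synaptic vesicle protein, was at 6.35 ± 0.481 FPKM (SD, n = 3) for 231-BR against 0.38 ± 0.052 FPKM (SD, n = 3) for MDA-MB-231. Of the endothelial genes, PECAM1 was at 0.42 ± 0.0557 FPKM (SD, n = 3) for 231-BR against 0.183 ± 0.0306 FPKM (SD, n = 3) for MDA-MB-231 (log2 fold change 0.88, limma adjusted p = 0.00066), and CDH5 had means under 0.05 FPKM in both. The neuronal gene RBFOX3, not tested, had means of 0.127 FPKM for 231-BR and 0.01 FPKM for MDA-MB-231. The leukocyte genes PTPRC, CD3E and AIF1 and the astrocyte genes AQP4 and GFAP had means under 0.05 FPKM in both lines. The part of other cells in the CD24 difference was not tested.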

How the data were processed

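The authors purified poly(A) RNA, sequenced paired reads of 100 bases and deposited gene expression as FPKM values rounded to 2 decimals. The submitters' processing notes name HISAT2 2.0.4, Bowtie2 2.2.5 and GRCh38.p12; the program that computed the FPKM is not given in the sources used here. The 6 sample files were identical to the columns of the matrix, and 25 symbols turned into dates were replaced through gene identifiers.

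A model with a term for the line was fitted to log2(FPKM + 0.1) in limma 3.58.1 under R 4.3.3 (lmFit, eBayes with trend) for genes with a mean of at least 0.1 FPKM, with Benjamini-Hochberg adjustment over all of them. Fold changes on this scale understate those of low genes. The authors used DESeq2, which needs counts. Ratios were compared by exact permutation tests with Python 3.11.15 and numpy 2.4.6. The fit was tested on simulated data, in which it recovered 79 of 93 log2 fold changes of 0.5 and 107 of 107 of 2. Few genes were changed there, whereas 77.3% of all genes tested passed in the deposited data. The simulation therefore does not give the error rate of the calls made here.

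The markers and lists were chosen with earlier results of these data known. All markers were named, and from each list up to 4 genes with the largest changes that passed both limits (0.05 for the adjusted p, 1 for the absolute log2 fold change) at a mean of at least 1 FPKM in either line, and the most abundant gene. Genes of the identity lists could all be named. Patterns were compared for CD44 and for the marker with the largest change. Coordinates and sequences came from GENCODE release 29. Neighbours were up to 20 genes on either side with a mean of at least 1 FPKM.

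Alternatives were pseudocounts of 1 and 0.01, no filter, a filter at 1 FPKM, median-of-ratios scaling, quantile normalization, no trend, a replicate term, each library left out in turn and an absolute log2 fold change over 1.5.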

Additional observations from a re-analysis of the deposited data

How the results depend on the processing

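No marker changed direction or lost its call at an adjusted p under 0.05 under any alternative in which it was tested; SOX2 could not be tested with a filter at a mean of 1 FPKM. PROCR gained a call, at −0.13 with median-of-ratios scaling and −0.13 with quantile normalization. The number of markers past both limits was 1 in place of 2 with a pseudocount of 1, a filter at 1 FPKM, quantile normalization or an absolute log2 fold change over 1.5. With a pseudocount of 1, of the 115 tested genes of the related lists, 14 in place of 22 were past both limits as higher and 3 in place of 6 as lower. Of all genes tested, 10.9% and 4.34% were past both limits with the pseudocount of 0.1. The shares with a pseudocount of 1 are not given here, so these drops cannot be set against that of all genes. The difference in log2(CD44/CD24) was −3.35 with a pseudocount of 1. The difference in log2(ALDH1A3/ALDH1A1) was −0.29 (exact permutation p = 0.1) and turned to 0.13 with a pseudocount of 0.01, since ALDH1A1 is listed at 0 in most libraries and the pseudocount sets the ratio. Quantile normalization moved the median of all genes (log2 fold change) from 0.08 to −0.06, and the share of higher genes among those that passed from 57.4% to 45.6%. Leaving out each library in turn gave log2 fold changes of 3.36 to 3.46 for CD24, −0.48 to −0.45 for CD44, −0.44 to −0.29 for ALDH1A3, 1.01 to 1.23 for SOX2 and −0.09 to −0.03 for PROCR. With a replicate block, the log2 fold change of PROCR was −0.06 (limma adjusted p = 0.083) and no marker's call changed. Same-numbered libraries had correlations of their deviations of 0.0873, −0.0396 and −0.106, and 2 of 6 libraries correlated best with their own number, so that the numbers were not taken as pairs. Without read counts, the error of low values such as those of SOX2, PROM1 and ALDH1A1 is not known.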

Other observations

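Among the epithelial and mesenchymal genes used to check the cell type, several further genes differed between the lines. FOXA1 was at 5.47 ± 0.243 FPKM (SD, n = 3) in 231-BR cells and 0.84 ± 0.105 FPKM (SD, n = 3) in MDA-MB-231 cells, and GATA3 was at 1.24 ± 0.166 and 0.433 ± 0.1 FPKM (SD, n = 3). The luminal keratin genes KRT8 and KRT18 went the other way, with log2 fold changes of −0.43 and −0.37, and ESR1 did not pass (log2 fold change 0.20, limma adjusted p = 0.16). The mesenchymal factor SNAI2 was higher as well, at 37.9 ± 0.697 against 9.97 ± 0.263 FPKM (SD, n = 3), a log2 fold change of 1.92. Of the 4 mesenchymal genes tested, 3 were higher in 231-BR cells and 1 did not pass, and of the 7 epithelial and breast genes tested, 4 were higher, 2 were lower and 1 did not pass. Of all genes tested 77.3% passed, 44.4% as higher and 32.9% as lower, so that such counts in short lists are no result about the lists.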
